A study of Trichoderma reesei with 6 samples.

Results

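This account follows 3 genes of chitin breakdown, nag1 (protein identifier 21725), nag2 (23346) and chi18-2 (59082), among the 9129 genes measured in mycelium of the filamentous fungus Trichoderma reesei. The genes were chosen by identifier, and nag2 and chi18-2 had come to attention because the authors' deposited table called them higher in the mutant on cellulose. Their values in that one comparison are therefore a description. Their levels on cellulose in Δcre1 are not independent of this choice either. The gene nag1 encodes the other N-acetylglucosaminidase and was not called there. The strain was a deletion mutant of cre1 (Δcre1) made in the parental strain QM9414, and the labels do not say how many mutant clones were used. One group of 3 libraries came from Δcre1 grown on 1% cellulose and the other group of 3 from Δcre1 grown on 2% glucose, both in Mandels-Andreotti medium at 28 °C on a shaker at 200 rpm. Every library used here thus carries the cre1 deletion, and QM9414 enters only through the authors' deposited fold changes. Cultures ran for 24, 48 or 72 h on cellulose and for 24 or 48 h on glucose, and the labels do not give the time of each library. Carbon source, its concentration and possibly time therefore differ together between the groups and cannot be told apart.

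Chitin, a polymer of N-acetylglucosamine, is a structural part of the fungal cell wall, and fungi also meet it as food or in other fungi. Chitinases of the family to which chi18-2 belongs cut the polymer into oligomers. N-acetylglucosaminidases, the enzymes encoded by nag1 and nag2, then release the single amino sugar from the ends of these oligomers. The gene cre1 encodes a zinc-finger repressor that holds down genes for using other carbon sources while glucose is present.

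The libraries held 9009170 to 24655534 reads, with the least in glucose library 1. A single gene took 33.3% of the reads in cellulose library 1 and 35.1% in glucose library 1. The deposited unit is a normalised read count, scaled for library size. Transcripts of cre1 were still counted in every library (361 to 4428 reads). Their normalised counts were 2081, 3394 and 3314 on cellulose (libraries 1 to 3), against 997, 525 and 557 on glucose (libraries 1 to 3). This remaining signal was thus higher in every cellulose library than in any glucose library. The authors' deposited table gave cre1 a log2 fold change of -1.96 on cellulose and -3.11 on glucose in Δcre1 over QM9414. The removed part of cre1 is not stated.

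The first comparison asked how the 3 genes differed between cellulose and glucose in Δcre1. Both N-acetylglucosaminidase genes rose on cellulose, nag2 by 3.62-fold and nag1 by 2.42-fold, and chi18-2 did not pass the test although its mean was higher on cellulose as well. The test was limma on log2(normalised count + 1) over 8176 genes, with Benjamini-Hochberg adjusted p under 0.05 as the call. It called 18.2% of the genes higher and 11.2% lower on cellulose. The 2 of 3 genes called higher are not a fair count against that share. The comparison by which nag2 and chi18-2 were chosen used the same Δcre1 cellulose libraries, so that choice favours high values here. Higher genes made up 62.0% of all calls with the deposited scaling and 45.7% after quantile normalisation. These p-values measure the spread between libraries that the series describes as biological replicates. Since the time of each library is not given, this spread may also hold differences in culture time.

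The nag1 gene stood at 1752, 2100 and 1433 normalised reads on cellulose (libraries 1 to 3), against 823, 545 and 823 on glucose (libraries 1 to 3). Every cellulose library stood above every glucose library, and the spread within each group was narrow. The means were 1762 ± 334 (SD, n = 3) on cellulose and 730 ± 160 (SD, n = 3) on glucose. The log2 fold change was 1.28 (SE 0.23, limma adjusted p = 0.00621). The call was lost when libraries were scaled by their total reads (log2 fold change 1.12, limma adjusted p = 0.0599).

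The nag2 gene stood at 11594, 9294 and 7184 normalised reads on cellulose (libraries 1 to 3), against 1710, 1968 and 4835 on glucose (libraries 1 to 3). The groups again did not overlap, but glucose library 3 lay between the other glucose libraries and the cellulose group. All 3 cellulose values lay above all 3 glucose values for 25.9% of the genes tested, and for nag1 and nag2 among the 3 genes described here. The means of nag2 were 9358 ± 2206 (SD, n = 3) on cellulose and 2837 ± 1735 (SD, n = 3) on glucose. The log2 fold change was 1.86 (SE 0.40, limma adjusted p = 0.0124). It was 1.67 without glucose library 2, where the call was narrowly lost (limma adjusted p = 0.0526), and 2.32 without glucose library 3 (limma adjusted p = 0.00251).

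The chi18-2 gene stood at 487, 610 and 320 normalised reads on cellulose (libraries 1 to 3), against 74.6, 53.3 and 449 on glucose (libraries 1 to 3). Here the groups overlapped, since glucose library 3 was above cellulose library 3 while the other glucose libraries were far below all of the cellulose group. The means were 472 ± 145 (SD, n = 3) on cellulose and 192 ± 223 (SD, n = 3) on glucose. The log2 fold change was 1.90 (SE 0.74) and did not pass (limma adjusted p = 0.0913). Without glucose library 3 it was 2.84 and passed (limma adjusted p = 0.00344), and without glucose library 2 it was 1.31 and did not pass. It also passed with scaling by total reads, at 1.74 (limma adjusted p = 0.0358). With edgeR on recovered reads the value was 1.25 and did not pass (adjusted p = 0.253).

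**Figure D1:**
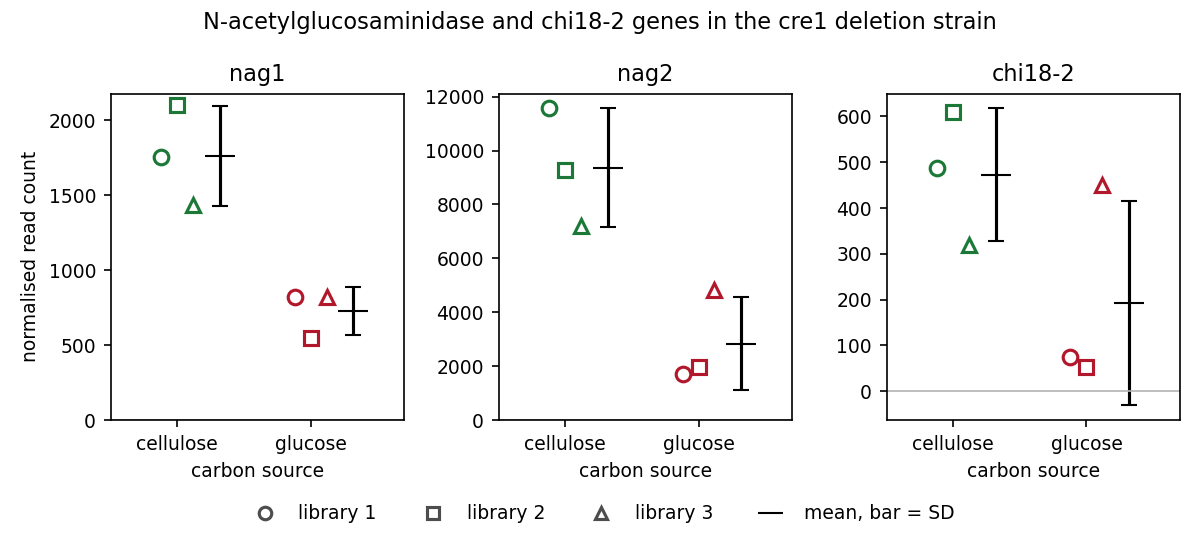
Normalised read counts (linear axes, one scale per gene) of nag1, nag2 and chi18-2 in Δcre1 on cellulose (green) and glucose (red). Each marker is 1 library and the black bar is the mean ± SD of 3; glucose library 3 (triangle) is at 4835 for nag2 and at 449 for chi18-2, above the other glucose libraries, and is not apart for nag1.

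Glucose library 3 was thus a library on which the call of chi18-2 turned, while nag2 was called with and without it. Read depth was not thin there: chi18-2 had 702 reads in glucose library 3, 88 in glucose library 2 and 27 in glucose library 1. Per 1000000 reads this was 28.5 (exact 95% Poisson interval 26.4 to 30.7), 3.72 (2.98 to 4.58) and 3.00 (1.98 to 4.36), intervals that cover counting error only. The count of chi18-2 in glucose library 3 was 6.03 times the higher of the other glucose libraries, and 12 of 8176 tested genes stood out there at least as far. For nag2 that ratio was 2.46, reached by 94 tested genes. For nag1 it was 1.00. The labels give no condition that sets this library apart, but they do not give its culture time (24 or 48 h) either. Whether time differed between the glucose libraries was not tested.

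Ratios within a library depend only slightly on how libraries are scaled, through the 1 added to each normalised count before the ratio. They are not corrected for gene length, so only their change between groups is read. The log2 ratio of nag1 to nag2 was -2.73, -2.15 and -2.33 on cellulose (libraries 1 to 3), against -1.05, -1.85 and -2.55 on glucose (libraries 1 to 3). It was lower on cellulose by 0.58 on average, but the groups overlapped (difference -0.58, exact permutation test, two-sided, p = 0.3). With 3 libraries a group the smallest p this test can give is 0.1. A larger response of nag2 than of nag1 was therefore not shown. The log2 ratio of chi18-2 to nag1 was -1.85, -1.78 and -2.16 on cellulose (libraries 1 to 3), against -3.45, -3.33 and -0.87 on glucose (libraries 1 to 3), again with glucose library 3 on the other side of the cellulose group.

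The other genes of chitin hydrolysis were taken from the reference annotation by the start of their symbol. Symbols alone were used, so some of these genes may not act on chitin. Of 19 such genes, 18 were measured and 15 had a mean of at least 10 normalised counts and were tested. The genes chi18-8, chi18-14 and chi18-17 were below that level, with no count above 16.6 in any library. A gene that is low on glucose passes this filter only through its cellulose values, so the counts that follow describe the tested genes and not the whole list. Of the 15, 8 rose on cellulose, 1 fell and 6 did not pass, with a median log2 fold change of 1.39 over the 15 and of -0.02 over all 8176 genes tested, of which 18.2% were called higher and 11.2% lower. Without nag1, nag2 and chi18-2, 6 of 12 rose and 1 fell, and the median was 1.03.

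Of the 6 other genes that rose, 3 had far larger changes than nag1 and nag2, and 3 had changes near theirs. The chitinase gene chi18-15 reached 429, 109 and 65.9 on cellulose (libraries 1 to 3), against 0, 1.21 and 2.56 on glucose (libraries 1 to 3). The chitinase gene chi18-12 had 393, 133 and 80.1 on cellulose (libraries 1 to 3), against 0, 3.63 and 7.04 on glucose (libraries 1 to 3). In glucose library 1 a count of 0 allows up to 8.29 normalised counts, the value of 3 reads. With a pseudocount of 10 their log2 fold changes were 3.82 and 3.71. The gene chi18-rel1, named for its relation to the chitinases, had 5151, 5930 and 3150 on cellulose (libraries 1 to 3), against 146, 52.7 and 73.0 on glucose (libraries 1 to 3).

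Changes closer to those of nag1 and nag2 were seen for chi18-6, chi18-5 and chi18-9, at log2 fold changes of 1.88, 1.64 and 1.39. The chitinase gene chi18-5 reached 1074, 373 and 254 on cellulose (libraries 1 to 3), against 160, 132 and 156 on glucose (libraries 1 to 3). Its cellulose group was spread widely, and it no longer passed without cellulose library 2 or any one glucose library (1.56 to 1.81, limma adjusted p from 0.0747 to 0.119). Without cellulose library 1, the highest, its log2 fold change was 1.04 and passed (limma adjusted p = 0.0350). The chitinase gene chi18-9 had 372, 435 and 276 on cellulose (libraries 1 to 3), against 144, 98.1 and 174 on glucose (libraries 1 to 3) (SE 0.29, limma adjusted p = 0.0104). With scaling by total reads its call was lost (limma adjusted p = 0.0790).

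One chitinase gene went the other way. The counts of chi18-4 were 45.5, 40.9 and 47.9 on cellulose (libraries 1 to 3), against 80.1, 94.4 and 81.3 on glucose (libraries 1 to 3), which is -0.91 on the log2 scale (limma adjusted p = 0.0378). This call did not hold with scaling by total reads (-1.07, limma adjusted p = 0.255) or when any single library except cellulose library 3 was left out (-0.96 to -0.84, limma adjusted p from 0.0703 to 0.153), so the size of the difference changed little. The genes chi18-3, chi18-7, chi18-13, chi18-16 and chi18-rel2 did not pass, with log2 fold changes from -0.48 to 0.68. Of these, chi18-rel2 passed without cellulose library 3, at -0.65.

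**Figure D2:**
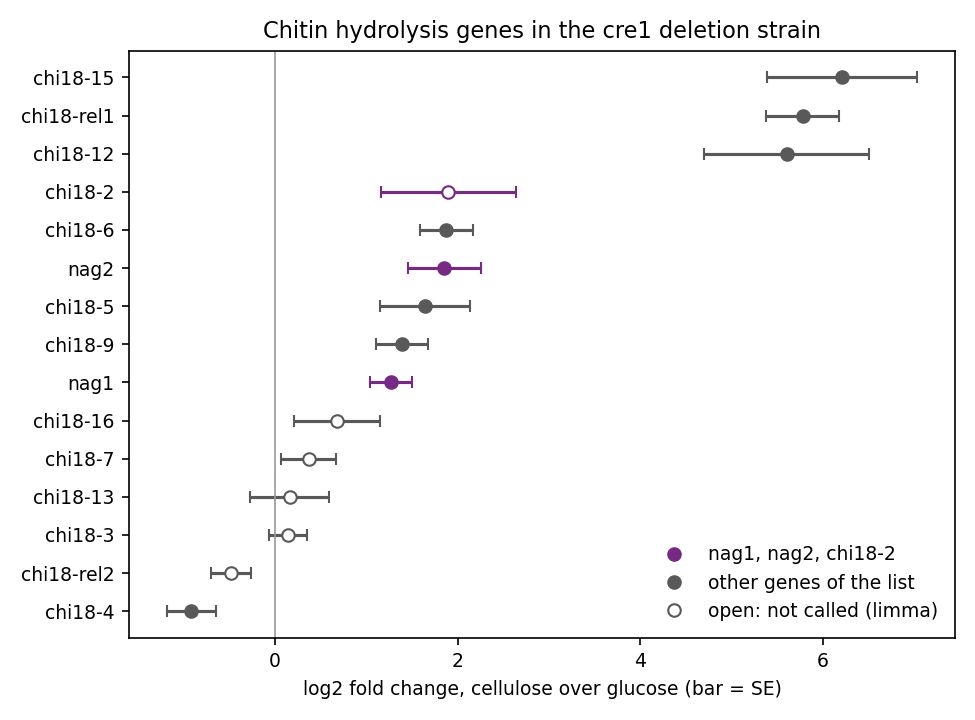
Log2 fold change (cellulose over glucose, limma, bar = SE) of the 15 tested chitin hydrolysis genes in Δcre1. Purple marks nag1 (1.28), nag2 (1.86) and chi18-2 (1.90), filled markers passed the test; chi18-2 has one of the widest bars (SE 0.74), and chi18-15, chi18-rel1 and chi18-12 stand apart at the top.

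The likeness of patterns was measured as the root mean square difference of log2(normalised count + 1) over the 6 libraries, each gene centred on its own mean. It is a description over 6 libraries of 2 groups and carries no test. The difference was 0.549 between nag2 and nag1, 0.550 between nag2 and chi18-2 and 0.903 between nag1 and chi18-2. How near this is depends on the gene it is seen from, since the median difference to all 8175 other tested genes was 0.802 for nag1, 1.13 for nag2 and 1.43 for chi18-2. Seen from nag2, nag1 was the 392nd and chi18-2 the 397th nearest gene. Seen from nag1, nag2 was the 1717th and chi18-2 the 5118th, and seen from chi18-2, nag1 was the 329th. Among genes with a symbol, nag2 was the nearest to chi18-2, and the 15th nearest of all tested genes.

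The nearest genes with a symbol differed between nag1 and nag2. Only 226 of the 9129 measured genes have a symbol, so genes without one can lie nearer. For nag1 the nearest with a symbol were chi18-9 (0.110), pdi1 (0.218), sar1 (0.225) and bip1 (0.259). Among all tested genes these were the 7th, 108th, 132nd and 199th nearest. Here pdi1 encodes a protein disulfide isomerase and bip1 a chaperone of the endoplasmic reticulum, and sar1 a GTPase of vesicle transport. For nag2 they were lad1 (0.308), env1 (0.315), rsr1 (0.365), gld1 (0.374) and snf1 (0.407), from the 28th to the 106th nearest of all tested genes. The gene lad1 encodes an L-arabinitol dehydrogenase, env1 a light-response regulator, gld1 a glycerol dehydrogenase and snf1 a protein kinase. For chi18-2 they were nag2 (0.550), env1 (0.659), rsr1 (0.797), chi18-9 (0.801) and lad1 (0.843), all farther away than the nearest genes of nag1 and nag2. These genes of chi18-2 held places from the 15th to the 207th among all tested genes.

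The neighbours of the 3 genes were looked up in the reference annotation of strain QM6a, with 3 genes on each side. All 18 were tested, and 4 rose and 14 did not pass, with a median log2 fold change of 0.24 against -0.02 over all genes tested. With 18.2% of all tested genes called higher, that count is near the background and is no result about the neighbours. Of the neighbours of nag1, 1 of 6 rose, of those of nag2, 2 of 6, and of those of chi18-2, 1 of 6. None of the 18 has a symbol. One of them, named after its values were seen, is the gene directly after nag2 (protein identifier 82032), which has no name in the files or the reference. It stood at 24898, 27080.5 and 15526 normalised reads on cellulose (libraries 1 to 3), against 5748, 4163 and 8679 on glucose (libraries 1 to 3). As for nag2, glucose library 3 was the highest of the glucose group. Its log2 fold change was 1.88 (SE 0.33, limma adjusted p = 0.00571). Its pattern differed from that of nag2 by 0.308, the 27th smallest difference of 8175 genes. Another neighbour of nag2 (protein identifier 82026), also named after its values were seen, was almost as close at 0.318, the 35th smallest. Its log2 fold change was 1.28 (SE 0.35, limma adjusted p = 0.0300).

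**Figure D3:**
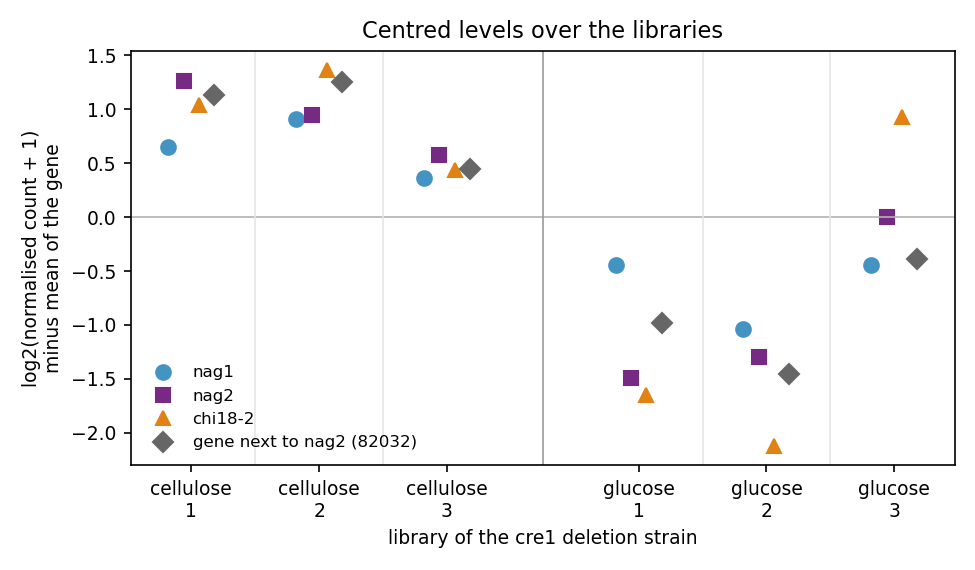
Log2(normalised count + 1) minus the mean of the gene over the 6 libraries, for nag1, nag2, chi18-2 and the gene next to nag2 (82032), with cellulose libraries at the left and glucose libraries at the right. In the glucose libraries the genes part most in library 3, where chi18-2 reaches the range of its cellulose values and nag1 does not.

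The second comparison asked how Δcre1 differed from QM9414 on each carbon source. Only the authors' deposited fold changes were used, which carry no standard errors and no levels. The parental libraries belong to another series, so that strain and batch cannot be told apart. On cellulose the authors' deposited table called 6.76% of 8788 genes higher and 2.51% lower in Δcre1. It gave nag2 a log2 fold change of 2.12 (4.34-fold, deposited adjusted p = 1.31e-15) and chi18-2 one of 1.60 (3.03-fold, deposited adjusted p = 1.10e-07), the values by which these genes were chosen. By size they were the 49th and the 115th of the 594 genes called higher in the authors' deposited table. In the same comparison nag1 was at 0.03 (1.02-fold, deposited adjusted p = 0.877). Because nag2 was chosen by its value here, the difference between the N-acetylglucosaminidase genes in this comparison is a description.

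On glucose none of the 3 genes was called. The authors' deposited table called 4.48% of 8789 genes higher and 3.45% lower there. It gave nag2 a log2 fold change of -0.89 (deposited adjusted p = 0.735), chi18-2 one of -0.94 (deposited adjusted p = 0.707) and nag1 one of -0.14 (deposited adjusted p = 0.848). The signs for nag2 and chi18-2 were thus opposite on the 2 carbon sources, but the difference between carbon sources was not tested. The authors' deposited table gives no error for it, and the parental per-library values, which match no sample label, were not used. The Δcre1 glucose group holds glucose library 3, in which both genes stood above the other glucose libraries. The Δcre1 cellulose libraries enter both the comparison with glucose and that with QM9414, so a high value there raises both.

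Among the 13 other chitin hydrolysis genes with a usable fold change on cellulose, the authors' deposited table called 0 higher and 0 lower, and it holds no unadjusted p-values. Over all 8788 genes it called 6.76% higher and 2.51% lower there. The counts are therefore near the background and no result about the 13 genes. Their median log2 fold change was 0.08, against 0.00 over all genes of the authors' deposited table. The values nearest to those of nag2 and chi18-2 in the authors' deposited table were 1.09 for chi18-12 and 0.86 for chi18-15, each with a deposited adjusted p of 1. On glucose the authors' deposited table called 1 of 13 lower, chi18-7 at -1.16 (deposited adjusted p = 0.00581), and 0 higher. Against 3.45% of all genes called lower and 4.48% higher on glucose, these counts are near the background too. The genes with the largest negative values there, chi18-15 at -6.99 and chi18-12 at -5.62 in the authors' deposited table, were not called and had few reads on glucose in Δcre1. In the authors' deposited table the gene next to nag2 (82032) was at 2.13 on cellulose (deposited adjusted p = 1.28e-17). On glucose it was at -0.80 (deposited adjusted p = 0.407), and both values were close to those of nag2. The other neighbour named above (82026) was not close to nag2 on either carbon source. It was at 0.50 on cellulose (deposited adjusted p = 0.567) and at 1.22 on glucose (deposited adjusted p = 0.114).

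**Figure D4:**
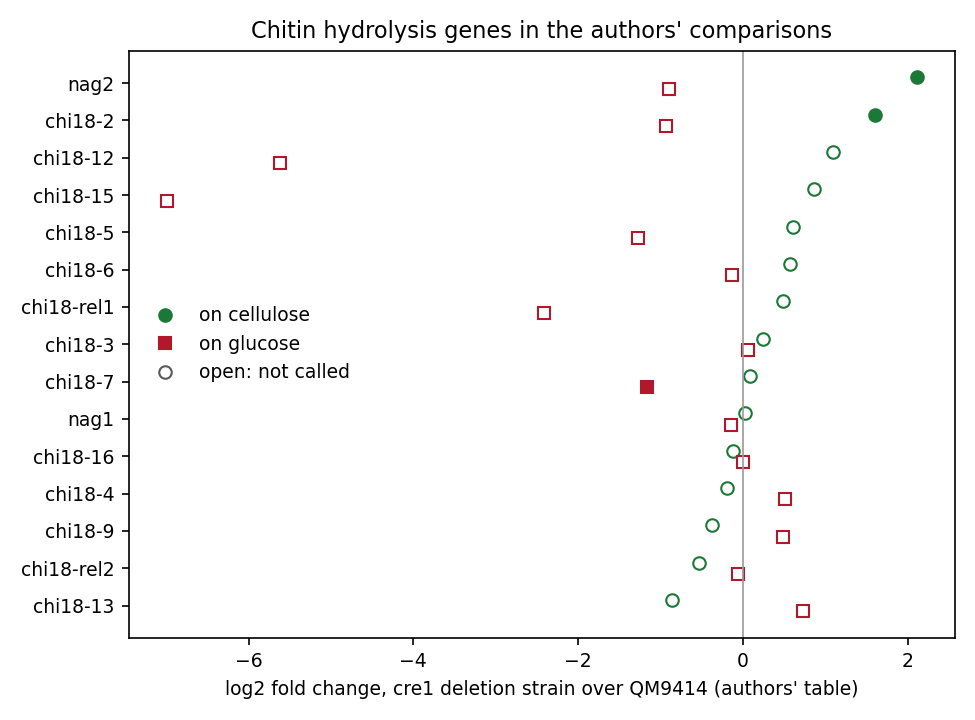
Log2 fold change of Δcre1 over QM9414 from the authors' deposited table, for the chitin hydrolysis genes without placeholder values, on cellulose (green circles) and on glucose (red squares). Filled markers have a deposited adjusted p under 0.05; nag2 (2.12) and chi18-2 (1.60) are the filled points on cellulose, nag1 lies near 0 on both, and chi18-7 (-1.16) is the filled point on glucose.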

How the data were processed

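RNA of mycelium was sequenced from TruSeq libraries, 3 per carbon source, grouped by sample title. The deposited values are a signal, a normalised read count per gene; Bowtie 0.12.8, SAMtools 0.1.18 and DESeq 1.10.1 are named without roles per the submitters' processing notes, and the sources used here state no build, annotation or counter. The deposited values are steps of the size of 1 read, and 100% gave whole reads within 0.01 read. The second table holds log2 fold changes of Δcre1 over QM9414 and adjusted p-values, per the file headers. Entries of 100 and -100 were taken as placeholders and left out, and genes with a fold change of 0 were left out of the background share. A further 6 columns of parental per-library values match no sample label and were not used.

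The test was limma 3.58.1 with an intensity trend (R 4.3.3), two-sided, after leaving out 953 genes with a mean under 10; edgeR 4.0.16 and DESeq2 1.42.0 ran on recovered reads. Scripts were tested on simulated data. Symbols and neighbours came from RefSeq assembly v2.0 of QM6a, which matched 9072 of 9129 identifiers, 226 with a symbol; its lengths were not used because the build of the files is not named, so levels were not compared between genes. Libraries of 1 group differed far beyond sampling noise, so none was counted as a duplicate. The genes, lists and tests were chosen with earlier results of these data known. Named genes were the 3 members, cre1, the measured genes of the lists by symbol, neighbours with a symbol, and the 5 genes with a symbol most like each member, of which 1 is not reported here.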

Additional observations from a re-analysis of the deposited data

How the results depend on the processing

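Over 16 alternative settings nag1 kept its direction and its call in 15, nag2 in 15, and chi18-2 kept its direction in all and passed in 2. Scaling by total reads, chosen after the data were seen, gave nag1 1.12 (adjusted p = 0.0599), chi18-2 1.74 (adjusted p = 0.0358), 872 genes higher and 446 lower, and 0 chitin hydrolysis genes lower. It moved the median of all genes to -0.17 and quantile normalisation to -0.18; relative to these medians nag1 was at 1.30 and 1.31, nag2 at 1.88 and 1.69, and chi18-2 at 1.92 and 1.95. Without single libraries nag1 ranged from 1.08 to 1.42, nag2 from 1.57 to 2.32, chi18-2 from 1.31 to 2.84, the ratio of nag1 to nag2 from -0.95 to -0.20, the genes higher from 996 to 1720 and lower from 361 to 1365, and the chitin hydrolysis genes higher from 6 to 8 and lower from 0 to 2. Leaving out cellulose library 2 gave 576 genes lower, leaving out glucose library 1 gave 525, glucose library 2 gave 361 (and 996 higher), and glucose library 3 gave 456. Quantile normalisation called 1520 genes lower. The recovered reads gave 2325 calls in edgeR and 2784 in DESeq2, against 2403. Adding chit18-11, chosen after the symbols were seen, made 9 chitin hydrolysis genes higher. That gene had 24.3, 17.3 and 41.9 normalised counts on cellulose (libraries 1 to 3) and 0 in every glucose library. It passed the filter only through its cellulose values, so its call adds no support. The replicate numbers did not pair the libraries (correlations of deviations 0.12, -0.14 and -0.03, and not every library was nearest to its own number); with the replicate block 1911 genes were called, 0 chitin hydrolysis genes lower, and nag1 (adjusted p = 0.0247) and nag2 (adjusted p = 0.0346) passed. A stricter deposited threshold of 0.01 changed no count of chitin hydrolysis genes; the counts over all genes of that table were not recomputed. The causes were not tested. The lowest read count of chi18-2 was 27, in glucose library 1.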

Other observations

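A list of genes for amino sugar and chitin synthesis, drawn by the start of the symbol, held no gene of those pathways by name. It found the genes of 3 G protein alpha subunits (gna1, gna2 and gna3) and the hexokinase gene hxk1. Between cellulose and glucose in Δcre1, limma called 0 of these 4, with 1 at an unadjusted p under 0.05, and edgeR and DESeq2 called 0. Over all 8176 tested genes limma called 18.2% higher and 11.2% lower, and 3498 had an unadjusted p under 0.05. A count of 0 of 4 is therefore no result about these genes. Quantile normalisation, or leaving out cellulose library 3, called 1 lower. The closest to the threshold was gna3, at 487, 515 and 695 normalised reads on cellulose (libraries 1 to 3), against 743, 861 and 814 on glucose (libraries 1 to 3) (log2 fold change -0.53, limma adjusted p = 0.0722). The gene hxk1 was at -0.18 and gna1 at -0.02.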
